A study of Mus musculus with 38 samples.

Results

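The proteasome is the barrel-shaped protease that degrades proteins marked with ubiquitin. Its 20S core is built from rings of alpha and beta subunits, and 3 of the beta subunits, encoded by Psmb5, Psmb6 and Psmb7, carry the cutting sites. The 19S cap, built from Psmc ATPases and Psmd non-ATPase subunits, recognises, unfolds and feeds in the substrates, whereas the PA28 (Psme1 to Psme3) and PA200 (Psme4) activators open the core without hydrolysing ATP. In cells exposed to interferon, and constantly in many leukocytes, the cutting subunits are exchanged for Psmb8, Psmb9 and Psmb10, which makes the immunoproteasome and favours peptides that fit MHC class I. In skeletal muscle the ubiquitin-proteasome system is known for its part in fibre atrophy and in the turnover of myofibrillar protein.

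The genes described here are the protein-coding genes of the deposited count table whose mouse symbol begins with Psm, a letter from a to g and a digit, which gave 50 of 27554 genes. They comprised 7 alpha subunits, 4 beta subunits without a cutting site, the 3 constitutive cutting subunits, the 3 immunoproteasome subunits, 2 tissue-restricted core subunits, 6 cap ATPases, 11 other cap subunits, 7 assembly chaperones, 4 genes of PA28, 1 gene each for PA200 and the inhibitor PI31, and Psmc3ip, which carries a matching symbol but encodes a recombination factor and not a subunit. A set of 31 genes, the core and cap subunits outside the immunoproteasome and the tissue-restricted genes, is called constitutive below.

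Gene expression was measured by 3′ mRNA sequencing in whole gastrocnemius of 23 male wild-type C57BL/6JRj mice. Cardiotoxin, a snake venom toxin that destroys myofibers, had been injected in one leg and muscle was taken at 5 days post-injury (dpi) from the injured and the contralateral leg. All mice were gavaged daily with 1% carboxymethyl cellulose, either alone (vehicle) or carrying nicotinamide at 200 mg/kg and pyridoxine at 4 mg/kg (NAM/PN). Contralateral libraries came from 6 vehicle and 5 NAM/PN mice among the young and from 6 of either treatment among the aged, and injured libraries from 5 and 3 young and from 3 and 4 aged mice, vehicle first. Wherever 4 values are given in a row, they follow this order, young before aged and vehicle before NAM/PN. Both legs were sequenced in 15 of the mice. The contralateral muscle belonged to an injured animal, and no muscle of uninjured mice was analysed here.

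Total counts per library ranged from 4032414 to 7507191, and group means of the share of counts on the 50 genes ran from 0.393% to 0.482% in contralateral and from 0.555% to 0.623% in injured muscle. Of the 50 genes, 47 passed the filter on low counts. Psma8, a testis subunit, and Psmb11, the thymus subunit, held 21 and 7 counts over all 38 libraries. Psme2, a PA28 subunit, held 110 counts, whereas its near-identical retrocopy Psme2b held 2033, so neither value can be assigned to its gene with certainty. Psmb9 overlaps Tap1 on the opposite strand, Psmb7 overlaps Nek6, and Psmb8 and Psmb10 each overlap an antisense gene. Psma3 and Psme4 also overlap genes on the opposite strand, and further members overlap other genes. Psma2, Psmd1, Psme2b and Psmg3 overlap protein-coding genes on the same strand, where strand does not tell reads apart. The strand setting used for counting is not given in the sources used here, so reads in these overlaps cannot be told apart.

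The promoters of both immunoproteasome genes with the largest injury response, of the constitutive subunit that Psmb8 replaces, and of the member that fell most in vehicle-treated young muscle are shown to illustrate what their sequences share and do not share. They span 250 bases before to 50 bases after the RefSeq transcript start on GRCm38.p6, each in the direction of its gene, and capitals mark matches to the letters named below. Psmb8 lies on the plus strand at chr17:34197945-34198244, Psmb9 on the minus strand at chr17:34187281-34187580, Psmb5 on the minus strand at chr14:54617946-54618245 and Psme4 on the plus strand at chr11:30771525-30771824.
Psmb8: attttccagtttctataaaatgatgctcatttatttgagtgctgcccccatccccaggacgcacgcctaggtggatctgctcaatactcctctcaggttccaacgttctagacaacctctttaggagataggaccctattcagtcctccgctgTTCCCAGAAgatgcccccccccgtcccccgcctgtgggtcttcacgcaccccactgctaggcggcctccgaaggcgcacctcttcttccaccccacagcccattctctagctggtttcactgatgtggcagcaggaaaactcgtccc
Psmb9: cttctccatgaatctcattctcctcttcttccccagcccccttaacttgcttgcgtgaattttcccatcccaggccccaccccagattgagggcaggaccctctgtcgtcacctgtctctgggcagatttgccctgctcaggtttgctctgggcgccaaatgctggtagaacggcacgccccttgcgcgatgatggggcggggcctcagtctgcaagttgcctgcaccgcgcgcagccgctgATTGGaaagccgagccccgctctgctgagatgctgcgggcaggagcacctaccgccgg
Psmb5: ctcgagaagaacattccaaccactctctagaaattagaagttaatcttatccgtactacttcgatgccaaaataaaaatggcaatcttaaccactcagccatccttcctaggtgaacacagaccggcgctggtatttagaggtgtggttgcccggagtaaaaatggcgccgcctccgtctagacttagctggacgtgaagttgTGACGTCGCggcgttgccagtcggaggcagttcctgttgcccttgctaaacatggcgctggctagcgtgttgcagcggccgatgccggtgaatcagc
Psme4: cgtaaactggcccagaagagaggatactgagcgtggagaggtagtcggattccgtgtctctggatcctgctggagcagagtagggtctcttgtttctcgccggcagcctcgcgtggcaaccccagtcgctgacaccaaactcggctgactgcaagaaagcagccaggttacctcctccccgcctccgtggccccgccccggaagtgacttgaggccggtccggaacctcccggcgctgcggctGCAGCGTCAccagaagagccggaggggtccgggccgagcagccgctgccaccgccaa

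Both strands of 45 promoters, belonging to 42 of the 50 genes, were searched for the letters of 4 motifs. The core of the antioxidant response element, which NRF factors bind, was searched as TGACNNNGC and was present in 6 of the 45 promoters (Psmb5, Psmb6, Psmc6, Psmd9, Psmd12 and Psme4), or 13.3%, against 12.4% of all 32851 mouse promoters. The gamma-activated site, TTCNNNGAA, was present in 3 (Psmb8, Psmd2 and Psmg1), or 6.67%, against 8.3%. The core of the interferon-stimulated response element, GAAA followed after any 2 bases by a second GAAA, was present in 5 of the 45 (11.1%, against 3.44%), none of them an immunoproteasome promoter, and the CCAAT box in 15 (33.3%, against 37.4%), Psmb9 among them. The windows of Psmb8 and Psmb9 lie inside the annotated bounds of these genes, which begin, in gene direction, at 34197721 and 34187764 on chr17. Bases upstream of the windows were not searched, so the absence of a match holds for the windows alone. The letters searched can overlap one another, and a match is a description of the window only.

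Before the comparisons, libraries were set against others of their own group, and some stood apart. The leading component of the variation within groups held 31.8% of that variation over the 12610 genes tested. Libraries aged vehicle contralateral 1 and 4, aged NAM/PN contralateral 4, young vehicle injured 4 and aged NAM/PN injured 4 scored below -0.2 on it. At the other end, aged vehicle contralateral 5 and 6 scored 0.37 and 0.26, farther from 0 than 3 of these 5. The 5 libraries called low here are therefore a one-sided choice, and values without aged vehicle contralateral 6 are given where they bear on Psmb8 and Psmb10. Proteasome genes took part in this component in both directions, as 34% of the 47 genes correlated with it above 0.7 and 14.9% below -0.7, against 12.4% and 9.31% of all genes tested. The points of these correlations are the 38 libraries, and the values are descriptive. Psma2, an alpha subunit, stood at 9.24 CPM (a gene's counts relative to its library's total, after scaling by TMM) in aged NAM/PN contralateral 4 and between 71.2 and 149 CPM in the 5 others of its group. In contrast, Psmc1, a cap ATPase, stood at 776 CPM there and between 200.1 and 314 CPM in the others. Subunits that are built into the complex in equal number thus moved apart within a group, with Psma2, Psmc2, Psma5 and Psmb7 at the one extreme (correlations of 0.95, 0.94, 0.94 and 0.91), where the assembly chaperone Psmg2 also lay (0.96), and Psmc1 and Psmc5 at the other (-0.95 and -0.89). Psmb8 and Psmb9 followed the component with correlations of 0.74 each and Psmb10 with -0.38. The results below are given with and without the 5 libraries where this matters.

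**Figure D1:**
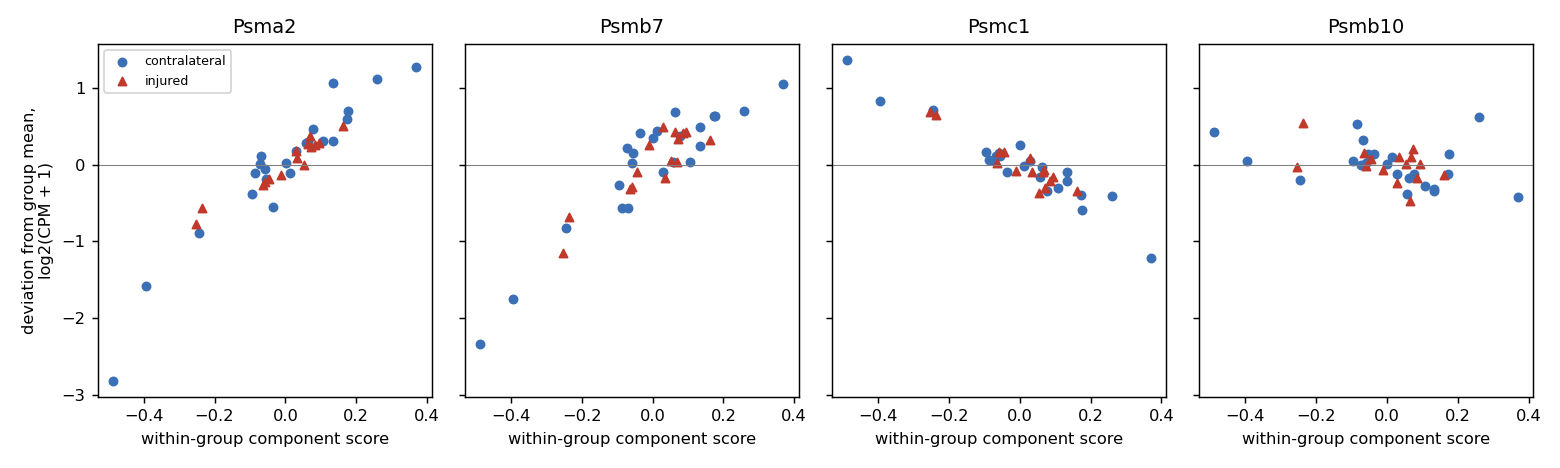
Deviation of 4 proteasome genes from their group mean, in log2(CPM + 1), against the score of each of the 38 libraries on the leading within-group component. Circles are contralateral and triangles injured libraries, and Psma2 and Psmb7 rise with the score, Psmc1 falls with it and Psmb10 shows little relation to it.

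With TMM scaling, the immunoproteasome subunits were called higher by edgeR in injured muscle than in the contralateral leg. The exceptions were Psmb9 and Psmb10 in aged vehicle mice, which did not pass that test. The constitutive subunits were called lower or did not pass the test with this scaling, and values with another scaling follow below. In young vehicle mice Psmb8 and Psmb9 were raised 4.12-fold and 5.47-fold and Psmb10 1.56-fold, all 3 past the threshold, whereas 0 of the 31 constitutive genes were called higher and 5 were called lower, against 29.3% and 26.2% of all genes tested. The question addressed by this comparison is how the muscle 5 days after toxin differs from the muscle of the other leg.

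Psmb8, which replaces Psmb5, lay between 3.31 and 7.56 CPM (median 5.32) in young vehicle contralateral muscle and at 23, 18.1, 22.2, 16.1 and 29 CPM in the 5 injured libraries. The injured libraries all lay above the contralateral ones. The log2 fold change was 2.04 ± 0.32 (SE; edgeR adjusted p = 2.05e-06), and it was 1.57 ± 0.37 in young NAM/PN (adjusted p = 0.000818) and 2.10 ± 0.33 in aged NAM/PN mice (adjusted p = 1.65e-06). In the young NAM/PN group the contralateral libraries stood at 5.73, 4.25, 7.45, 7.47 and 7.87 CPM and the injured ones at 22.5, 14.6 and 21.7 CPM. In the aged NAM/PN group the contralateral libraries ran from 2.77 to 9.48 CPM (median 7.21), and the injured ones stood at 37.4, 34.6, 27.6 and 13.7 CPM, the lowest being the library with the low component score. The groups did not overlap in either case.

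In aged vehicle mice Psmb8 was also called higher, by 0.92 ± 0.34 (edgeR adjusted p = 0.0336), but here the groups overlapped. The injured libraries stood at 18.8, 16.8 and 19.9 CPM, close to each other, whereas the contralateral libraries stood at 3.87, 7.56, 10.3, 5.29, 8.01 and 22.6 CPM. The value of 22.6 CPM belonged to replicate 6, whose leukocyte markers summed to 374 CPM, the highest of the contralateral libraries. With this library left out the value was 1.40 (adjusted p = 0.000479), and it was 0.59 without the 5 libraries of low component score, 2 of which belong to this contralateral group (adjusted p = 0.0954). The call was also lost when any 1 of 7 of the 9 libraries compared was left out and when these groups were compared alone (adjusted p = 0.144).

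Psmb9, which replaces Psmb6, was the least abundant of the 3 and lay between 0 and 1.4 CPM (median 1.04) in young vehicle contralateral muscle. The 5 injured libraries stood at 5.94, 4.87, 4.21, 3.22 and 7.1 CPM, all above every contralateral library of the group. The log2 fold change was 2.45 ± 0.59 (edgeR adjusted p = 0.000675), 2.11 ± 0.69 in young NAM/PN (adjusted p = 0.0139) and 2.65 ± 0.57 in aged NAM/PN mice (adjusted p = 0.000169). With the mouse as a fixed block, in the mice with both legs, the young NAM/PN value of 1.69 no longer passed (adjusted p = 0.0895). In the aged NAM/PN group the injured libraries stood at 11.6, 9.23, 11.5 and 2.07 CPM and the highest of the 6 contralateral libraries at 3.71 CPM, so that 1 injured library overlapped them. In aged vehicle mice the difference of 0.76 ± 0.62 did not pass (adjusted p = 0.339), with injured libraries at 4.48, 3.17 and 2.2 CPM and a contralateral range of 0.516 to 5.07 CPM.

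Psmb10, which replaces Psmb7, had smaller log2 fold changes. It lay between 12 and 23.4 CPM (median 16.3) in young vehicle contralateral and at 24.8, 17.7, 26.1, 36.4 and 22.6 CPM in injured muscle, and these ranges overlapped. The log2 fold change was 0.64 ± 0.19 (edgeR adjusted p = 0.00391), 0.80 ± 0.22 in young NAM/PN (adjusted p = 0.004) and 0.91 ± 0.20 in aged NAM/PN mice (adjusted p = 0.000167). In aged vehicle mice it was 0.49 ± 0.21 (adjusted p = 0.0603). There it passed with RLE size factors, the style of description as a covariate, DESeq2, voom with quality weights and the mouse as a block in voom (0.49 to 0.56, adjusted p from 0.00996 to 0.0406), with the mouse as a fixed block (0.75, adjusted p = 0.0289) and without contralateral replicate 6 (0.66, adjusted p = 0.0107). Within the 15 mice with both legs sequenced, Psmb8 and Psmb10 were higher in the injured leg of 15 and Psmb9 in that of 14.

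On the TMM scale, the subunits they replace did not share this rise. Psmb5, the chymotrypsin-like subunit, had log2 fold changes of 0.03 ± 0.19, 0.26 ± 0.23, -0.10 ± 0.22 and 0.14 ± 0.20 in the 4 groups of mice, none past the threshold, and was higher in the injured leg of 8 and lower in that of 7 of the 15 mice. Psmb6, the caspase-like subunit, had values of -0.25, -0.25, -0.27 and -0.43, of which only the last was called (edgeR adjusted p = 0.023). This call was lost with RLE size factors (adjusted p = 0.0609), with these groups compared alone (0.139), with the mouse as a fixed block (0.0507) and when contralateral replicate 4, injured replicate 1 or injured replicate 3 was left out (0.0641, 0.0928 and 0.102). Psmb7, the trypsin-like subunit, had values of -0.86, -0.72, -0.56 and -0.62, none called by edgeR with all groups in the model. With the groups compared alone, edgeR called it lower in young vehicle (-0.82, adjusted p = 0.00309) and young NAM/PN mice (-0.69, adjusted p = 0.0373). It was also called in young vehicle mice without contralateral replicate 6 or injured replicate 2 (edgeR adjusted p = 0.0408 and 0.0468). The same held in aged NAM/PN mice without contralateral replicate 4 (0.0428). With the mouse as a block in voom, Psmb7 was called lower in young vehicle, young NAM/PN and aged NAM/PN mice (adjusted p = 0.00905, 0.0407 and 0.0342), and Psmb6 in young vehicle mice (-0.37, adjusted p = 0.00444). Voom without the block called the same genes in these groups, and without the 5 libraries of low component score edgeR called Psmb7 in young vehicle, aged vehicle and aged NAM/PN mice (adjusted p = 0.00279, 0.00192 and 0.0293). Psmb6 and Psmb7 were each lower in the injured leg of 13 of the 15 mice. With libraries scaled by their total counts instead of TMM, all of the values of Psmb6 and Psmb7 turned positive. Under that scaling edgeR called Psmb5 higher in all 4 groups (0.97, 1.03, 0.59 and 1.19, adjusted p = 0.000217, 0.000944, 0.0481 and 2.95e-05). Psmb6 was called higher in all 4 as well (edgeR adjusted p = 1.38e-05, 0.00238, 0.0108 and 0.000191), beside 66%, 54.6%, 49.3% and 67% of all genes. The contrast with the immunoproteasome subunits in calls therefore depends on the scaling.

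**Figure D2:**
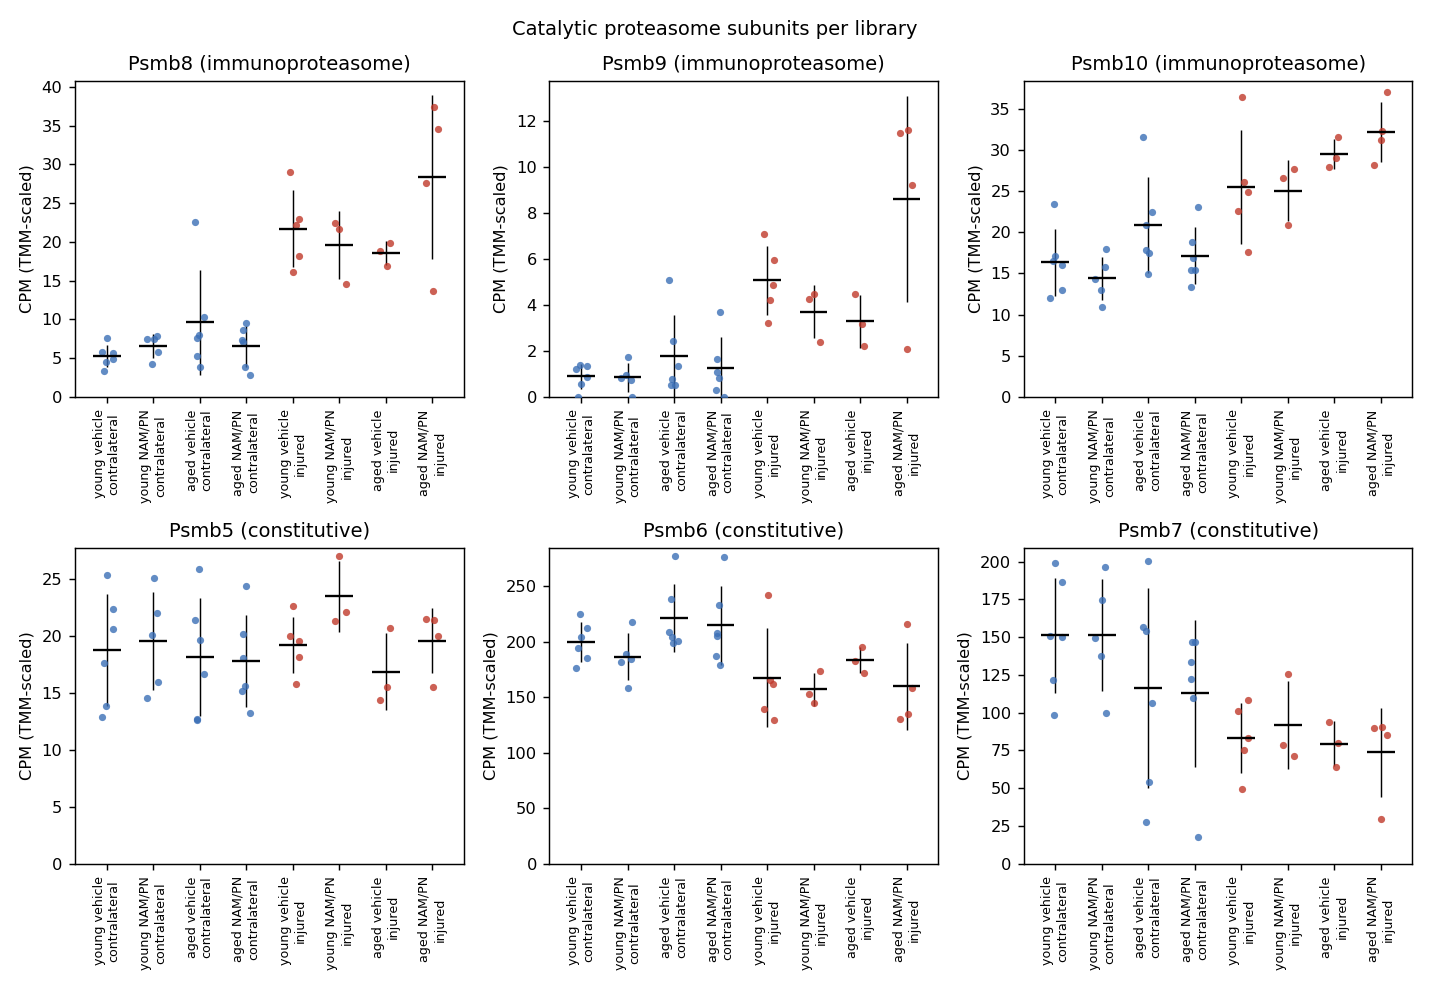
TMM-scaled CPM per library of the 3 immunoproteasome subunits (upper row) and the constitutive subunits they replace (lower row) in the 8 groups. Points are libraries, blue contralateral and red injured, with the group mean and SD. The injured libraries of Psmb8 sit between 13.7 and 37.4 CPM and the contralateral ones, apart from 1 at 22.6 CPM, between 2.77 and 10.3 CPM, whereas those of Psmb5 overlap throughout.

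Each immunoproteasome subunit was also set against the subunit of the same site within a library, which cancels the scaling apart from the CPM added. For Psmb9, the least abundant, this addition is large beside some of its values, so the scaling does not cancel fully there. The log2 ratio of Psmb8 to Psmb5 (0.5 CPM added to each) was -1.73 ± 0.41 (SD, n = 6) in contralateral and 0.15 ± 0.43 (n = 5) in injured young vehicle muscle, a difference of 1.88 (two-sided exact permutation p = 0.00433, the smallest this design allows). The differences in the other 3 groups of mice were 1.24, 1.20 and 1.90 (exact permutation p = 0.0357, 0.0476 and 0.00952). For Psmb9 to Psmb6 they were 2.36, 2.00, 1.25 and 2.91 in the same order of groups, and for Psmb10 to Psmb7 1.48, 1.52, 0.82 and 1.39, so that all 12 differences of injury were positive. Of the 30 ratio tests made, 0 had a Benjamini-Hochberg adjusted p under 0.05, and the smallest adjusted value was 0.0649 (exact permutation tests). Only differences between groups are read from these ratios, since the 3′ reads of different genes need not be recovered equally.

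**Figure D3:**
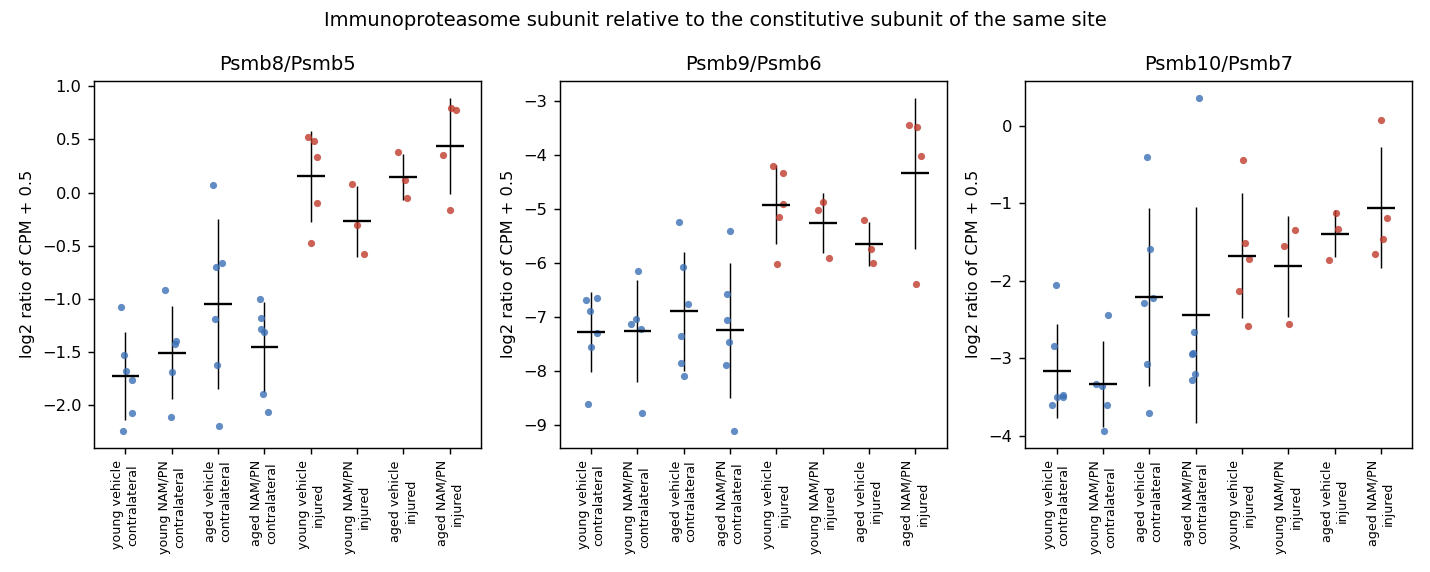
Log2 ratio of each immunoproteasome subunit to the constitutive subunit of the same site in every library (0.5 CPM added), by group. Black bars are group means with SD, and the injured means lie above the contralateral mean of the same age and treatment in all 3 panels. The library at 0.36 in the Psmb10/Psmb7 panel is aged NAM/PN contralateral 4, in which Psmb7 stood at 17.9 CPM.

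Genes that act with the immunoproteasome in antigen presentation were among those called higher. Of 11 genes of the MHC class I pathway, 9 were called higher in young vehicle, 9 in young NAM/PN, 5 in aged vehicle and 9 in aged NAM/PN mice, and 0 lower. Tap1, the peptide transporter gene next to Psmb9, had log2 fold changes of 2.57, 1.94, 1.58 and 2.48, and B2m, the light chain of MHC class I, of 1.62, 1.61, 1.20 and 2.05, all called. Tap2, the partner of Tap1 in the transporter, and Erap1, a peptide-trimming enzyme, were called in no group, with values from -0.37 to 1.68 and from -0.02 to 0.20. Of 10 interferon-response genes tested, 8, 7, 3 and 9 were called higher and 0 lower. Irf1, a transcription factor induced by interferon, had values of 1.17, 1.04, 0.95 and 1.52, of which the first and the last were called. The background of genes called higher was 29.3%, 22.4%, 20.8% and 29.2% of the 12610 genes in the 4 groups in this order.

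Markers of other cell types moved with the same comparison. Summed over 13 leukocyte markers, contralateral libraries held 30.9 to 374 CPM and injured ones 365 to 789 CPM. In young vehicle muscle 7 of the 8 markers tested were called higher, Ptprc, Cd68 and Adgre1 among them, whereas Cd3e, Cd8a, Ncr1 and Ly6g, which define T cells, natural killer cells and neutrophils, did not pass the filter, and Ncr1 was at 0 in every contralateral library. The 10 myofiber markers summed to 101940 to 192460 CPM in contralateral and 24138 to 68664 CPM in injured muscle, and the 6 markers of regenerating fibers to 33.5 to 774 and 1840 to 6038 CPM. The 8 stromal markers summed to 604 to 2670 and 2697 to 10107 CPM, but single markers went different ways. The collagen genes Col1a1 and Col3a1 were called higher in all 4 groups of mice (2.33 to 4.05), whereas the endothelial marker Cdh5 was called lower in young vehicle mice (-0.53, edgeR adjusted p = 0.00516) and Dcn and Adipoq in aged NAM/PN mice (-0.64 and -1.94, adjusted p = 0.0063 and 0.0381). The part of these markers in the proteasome values was not tested, and in whole muscle fewer cells of a type and less RNA per cell cannot be told apart.

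Over all 47 genes tested, 4 were called higher and 7 lower in young vehicle, 4 and 7 in young NAM/PN, 1 and 12 in aged vehicle and 7 and 14 in aged NAM/PN mice. Set against the background of called genes, the share called higher was 8.51%, 8.51%, 2.13% and 14.9% of the 47, below the 29.3%, 22.4%, 20.8% and 29.2% of all genes. The share called lower was 14.9%, 14.9%, 25.5% and 29.8%, against 26.2%, 18.1%, 17.5% and 26.1%. By a second measure, libraries of the compared groups that did not overlap, 3, 3, 0 and 3 members were higher and 7, 12, 10 and 5 lower, against 21.1%, 23.8%, 17.3% and 20.8% of all genes higher and 18%, 19.3%, 11.9% and 16.2% lower. The median log2 fold change of the 47 genes was -0.13, -0.23, -0.33 and -0.31, against 0.05, 0.04, -0.01 and 0.03 over all genes, but these signs turn with scaling by total counts, which lifts the median of all genes by 0.94, 0.79, 0.70 and 1.05 and calls 35, 25, 15 and 32 members higher beside 66%, 54.6%, 49.3% and 67% of all genes. Under that scaling the members' medians of 0.80, 0.55, 0.38 and 0.73 remain below those of all genes, 0.99, 0.83, 0.69 and 1.08.

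The counts moved with single libraries and with the block. The 13 calls in aged vehicle mice became 6 without injured replicate 1 and 8 without injured replicate 3, and the 11 in young NAM/PN mice became 7 without injured replicate 2. Without the 5 libraries of low component score, 6 were called higher and 18 lower in young vehicle, 0 and 17 in aged vehicle, and 6 and 22 in aged NAM/PN mice, and none of the 5 is a young NAM/PN library. With the mouse as a block in voom with quality weights, 5 and 18, 5 and 15, 3 and 15, and 10 and 23 were called in the 4 groups, and with the mouse as a fixed block in edgeR, in mice with both legs, 2 and 4 in aged vehicle. The share of all genes called in each of these fits is not given here. A rise or fall of the counts is therefore not read as a result about the members.

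**Figure D4:**
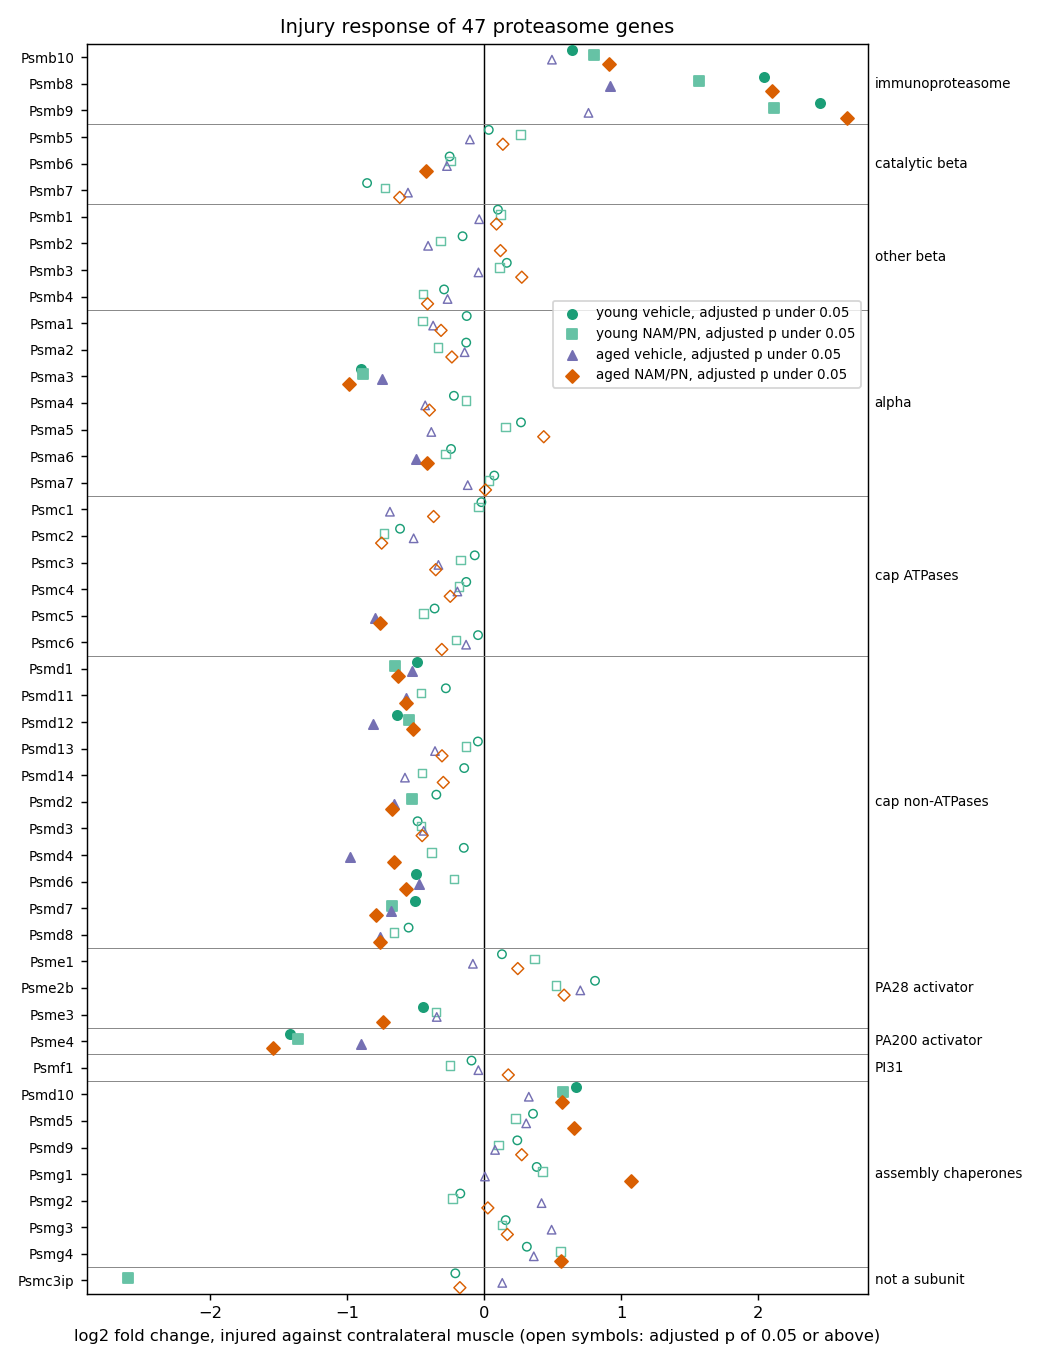
Log2 fold change of injured against contralateral muscle for the 47 genes tested, grouped by their place in the complex, with 1 symbol per group of mice. Filled symbols passed an edgeR adjusted p of 0.05. The immunoproteasome genes lie to the right of 0 and the cap non-ATPases to the left in all 4 groups under TMM scaling, whereas with total-count scaling most members lie to the right.

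Across the 4 groups of mice, whose libraries are separate, 10 of the 47 genes had a positive value in all 4, 27 a negative value in all 4 and 10 were mixed under TMM scaling. Psmb8 was called higher in all 4, and Psma3, Psmd1, Psmd7, Psmd12 and Psme4 were called lower in all 4, whereas 25 genes were called in none. The 7 genes called higher in at least 1 group with TMM scaling were the 3 immunoproteasome subunits and 4 assembly chaperones, Psmd5, Psmd10, Psmg1 and Psmg4. In single comparisons 17.5% to 29.3% of all genes were called in a given direction. The share of all genes with such patterns across the 4 groups is not given here, so these counts describe the members only. With total-count scaling the values of Psma3 lay between -0.12 and 0.06, and none of them passed as lower.

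The PA200 activator had the largest fall of the 47 genes in young vehicle and aged NAM/PN mice. Psme4 encodes this single-chain activator, which is known for its role in the breakdown of histones. In young vehicle mice it lay between 227 and 340 CPM (median 319) in contralateral muscle and at 84.2, 147, 111, 90.1 and 120.1 CPM in injured muscle, with no overlap. The log2 fold change was -1.42 ± 0.21 (edgeR adjusted p = 4.89e-07), -1.36 ± 0.25 in young NAM/PN (adjusted p = 6.55e-05), -0.90 ± 0.24 in aged vehicle (adjusted p = 0.00366) and -1.54 ± 0.23 in aged NAM/PN mice (adjusted p = 5.55e-07). The groups did not overlap in any of these comparisons, and Psme4 was lower in the injured leg of all 15 mice with both legs. These values are on the TMM scale. With total-count scaling 1, 2, 0 and 1 of the 47 genes were called lower in the 4 groups, so Psme4 was not called in aged vehicle mice. Aged vehicle contralateral muscle, at 135 to 339 CPM, reached lower values than the young, and the 3 injured aged vehicle libraries stood at 129, 114 and 130.

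Of the alpha ring, Psma3 alone was called in all 4 groups, while Psma6 was called lower in both aged groups. Psma3 lay between 38.9 and 61.1 CPM (median 46.1) in young vehicle contralateral and at 26.1, 26.8, 20.4, 28.7 and 24.8 CPM in injured muscle. These values were separate, as they were in the other 3 groups. The log2 fold changes were -0.90 ± 0.15, -0.89 ± 0.18, -0.75 ± 0.18 and -0.99 ± 0.16 (edgeR adjusted p = 5.65e-06, 0.000242, 0.00132 and 4.41e-06). The other 6 alpha subunits ranged from -0.50 to 0.43. The 4 beta subunits without a cutting site, from Psmb1 to Psmb4, were not called in any group and ranged from -0.45 to 0.27.

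In the cap, the base ATPases and the other subunits were counted separately. Of the 11 non-ATPase subunits 4, 4, 8 and 8 were called lower and 0 higher, with medians of -0.49, -0.46, -0.58 and -0.57 under TMM scaling, against 0, 0, 1 and 1 of the 6 ATPases, with medians of -0.10, -0.20, -0.42 and -0.36. The share of all genes called lower was 26.2%, 18.1%, 17.5% and 26.1%, beside 36.4%, 36.4%, 72.7% and 72.7% of the non-ATPase subunits. Whether these classes differ was not tested. Psmd12, a lid subunit, stood at 33.4 to 46.9 CPM in injured and 51.2 to 81.6 CPM in contralateral young vehicle muscle (log2 fold change -0.64 ± 0.17, edgeR adjusted p = 0.00129). Psmd7, another lid subunit, stood at 214, 201 and 236 CPM in injured and 294 to 403 CPM in contralateral young NAM/PN muscle (-0.67 ± 0.17, adjusted p = 0.00202). With total-count scaling the values of Psmd12 in young vehicle and of Psmd7 in young NAM/PN mice turned positive, to 0.29 and 0.12.

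Assembly chaperones help to put core and base together and leave the finished particle. On the TMM scale they were the only class apart from the immunoproteasome with genes called higher. In aged vehicle mice Psmb8 was the only member called higher. The share of all genes called higher was 29.3%, 22.4%, 20.8% and 29.2%, and whether the class differs from it was not tested. With total-count scaling 35, 25, 15 and 32 of the 47 genes were called higher, so the statement does not hold there. Psmd10, also known as gankyrin, stood at 10.7 to 16.6 CPM in contralateral and at 21.4, 21.5, 25.5, 29.2 and 19.9 CPM in injured young vehicle muscle, without overlap. Its log2 fold change was 0.67 ± 0.16 (edgeR adjusted p = 0.000755), 0.58 ± 0.19 in young NAM/PN (adjusted p = 0.0167, but 0.0735 and 0.0581 without injured replicate 1 or 2), 0.33 ± 0.19 in aged vehicle (adjusted p = 0.171) and 0.57 ± 0.17 in aged NAM/PN mice (adjusted p = 0.00554), the last being 0.39 and no longer called without the 5 libraries of low component score. Psmg1, a chaperone of the alpha ring, was called in aged NAM/PN mice, with 11.3, 8.15, 5.75 and 3.19 CPM in injured and at most 4.74 CPM in contralateral muscle (1.07 ± 0.39, adjusted p = 0.0183). It fell short without injured replicate 1 (0.75, adjusted p = 0.133) and with the mouse as a fixed block (0.87, adjusted p = 0.0678). Psmd5 was called there as well (0.65 ± 0.26, adjusted p = 0.0322), and 5 of the 10 libraries compared each ended this call when left out.

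Of PA28, the activator that partners the immunoproteasome, Psme1 was not called in any group, with values of 0.13, 0.37, -0.08 and 0.25, and the retrocopy Psme2b, with values of 0.81, 0.52, 0.70 and 0.58, was not called either. Psme3, the nuclear PA28 subunit, was called lower in young vehicle (-0.45 ± 0.13, edgeR adjusted p = 0.00448) and aged NAM/PN mice (-0.74 ± 0.14, adjusted p = 4.17e-05). In the latter the injured libraries stood at 21.1, 26.6, 24.9 and 27.4 CPM and the contralateral ones at 26.5 to 49 CPM. With total-count scaling this value turned to 0.29. Psmf1, the inhibitor PI31, was not called, and Psmc3ip was called lower in young NAM/PN mice (-2.60) on 193 counts over all libraries.

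Genes that feed or regulate the proteasome were called in both directions, with more of them lower. Of 17 partner genes tested, 9, 9, 8 and 10 were lower and 0 higher in the 4 groups, or 52.9%, 52.9%, 47.1% and 58.8% lower against 26.2%, 18.1%, 17.5% and 26.1% of all genes. Ecpas, the proteasome scaffold, had log2 fold changes of -1.34, -1.24, -0.97 and -1.44, and Zfand5, which stimulates the proteasome in atrophying muscle, of -1.34, -1.63, -1.06 and -1.88, all called. Nfe2l1, the transcription factor that raises the genes of the constitutive subunits, had values of -0.89, -0.68, -1.23 and -1.18, all called, and its protease Ddi2 and its deglycosylase Ngly1 were also called lower in all 4. In the same list of 7 transcriptional regulators, Stat3 was called higher in young vehicle (0.91) and aged NAM/PN mice (0.75) and Nfe2l2 in young NAM/PN mice (0.72). Of 10 ubiquitin ligases of muscle, 3, 4, 4 and 5 were called lower and 0 higher, of which the 3 in young vehicle mice, 30%, lay near the 26.2% of all genes. Trim63 (MuRF1) and Fbxo32 (atrogin-1), the ligases known from atrophy, had values of -1.49, -1.09, -1.33 and -2.35 and of -1.93, -2.05, -1.72 and -3.05. The polyubiquitin gene Ubb was called lower in all 4 groups, whereas Rps27a, a ubiquitin-ribosomal fusion gene, was called higher in both young groups (0.91 and 1.14) and Uba6, a ubiquitin-activating enzyme, in young vehicle mice (0.44). All these values are on the TMM scale, beside a shift of 0.70 to 1.05 with total-count scaling.

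Age was compared between aged and young vehicle mice, in each leg. No proteasome gene was called in either. In injured muscle 0 of the 12610 genes (0%) were called by edgeR, and 0 of the 47 had an unadjusted p under 0.05, against 6.31% of all genes. Psmb8, Psmb9 and Psmb10 differed by -0.23 ± 0.36, -0.65 ± 0.60 and 0.21 ± 0.22, and the median of the 31 constitutive genes was 0.02 (range -0.28 to 0.25). Thus these injured groups, of 3 aged and 5 young libraries, differed in these genes by less than the edgeR test could call, and Psmb8 stood at 16.8 to 19.9 CPM in the aged and 16.1 to 29 CPM in the young libraries.

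In contralateral muscle 0.571% of all genes were called higher and 0.531% lower for age, and 0 of the 47 were, whereas 5 had an unadjusted p under 0.05, against 12.7% of all genes, namely Psmb8, Psmc3, Psmd2, Psmd4 and Psmd13, all with positive values. DESeq2 and voom with quality weights called 0 as well. Psmb8 had the lowest aged value at 3.87 and the highest at 22.6 CPM, against 3.31 to 7.56 CPM in the young, and differed by 0.90 ± 0.32 (edgeR adjusted p = 0.191). This value rested on aged replicate 6 and on the libraries of low component score in opposite ways, being 0.47 without the former (adjusted p = 0.57) and 1.23 without the latter (adjusted p = 0.0157). Psmb9 differed by 1.04 ± 0.63 and Psmb10 by 0.36 ± 0.18, neither called. In replicate 6 the MHC class I genes summed to 1661 CPM, the top of a contralateral range from 731 CPM, and the interferon genes to 345 CPM, above a range that began at 58.5 CPM. With replicate 6 included, 2 of the 8 leukocyte markers tested were called higher for age, Itgam (1.86, edgeR adjusted p = 0.0398) and S100a8 (3.11, adjusted p = 0.024). So was 1 of the 10 interferon genes, Ifit3 (2.19, adjusted p = 0.0499), and 0 of the 11 MHC class I genes, of which 2 had an unadjusted p under 0.05. The median sum of the interferon genes was 86.8 CPM in aged and 96.7 CPM in young vehicle contralateral libraries. That of the MHC class I genes was 845 and 883 CPM, and that of the leukocyte markers 93 and 54.2 CPM. Values of these marker genes without replicate 6 are not given here. The part of these genes in the value of Psmb8 was not tested. The 31 constitutive genes had a median of 0.19 (range -0.37 to 0.58), and 26 of them were positive.

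NAM/PN was compared with vehicle at each age and in each leg, and no proteasome gene was called by edgeR or DESeq2 in any of the 4 comparisons, in which edgeR called 0%, 0.00793%, 0% and 0% of all genes (aged injured, aged contralateral, young injured and young contralateral). At an unadjusted p under 0.05 there were 4, 0, 1 and 1 of the 47 genes, against 7.38%, 4.11%, 2.75% and 4.87% of all genes. In aged injured muscle the 4 were Psmb9 and Psmg1, with positive values, and Psme3 and Psme4, with negative ones. Psmb9 stood at 11.6, 9.23, 11.5 and 2.07 CPM with NAM/PN and at 4.48, 3.17 and 2.2 CPM with vehicle, so that 3 of the 4 treated libraries lay above all vehicle libraries and 1 lay below them. The log2 difference was 1.41 ± 0.63 (adjusted p = 0.57). Psmb8, at 37.4, 34.6, 27.6 and 13.7 CPM against 18.8, 16.8 and 19.9 CPM, showed the same arrangement, with a difference of 0.61 ± 0.37 (adjusted p = 0.823). Psmb10 differed by 0.12 ± 0.23.

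The library below the others in both genes was aged NAM/PN injured 4, 1 of the 5 with a low component score. In voom with quality weights, which gives libraries that deviate less weight, 4 members were called in this comparison, Psmb8 (0.72, adjusted p = 0.03), Psmb9 (1.71, adjusted p = 0.00505) and Psmg1 (1.14, adjusted p = 0.0363) as higher and Psme3 (-0.44, adjusted p = 0.0121) as lower, and the same number with the mouse as a block. Without the 5 libraries edgeR called Psmg1 alone (1.33, adjusted p = 0.0244), with Psmb9 at 1.74 (adjusted p = 0.0765) and Psmb8 at 0.84 (adjusted p = 0.145). The share of all genes called by voom, or by edgeR without the 5 libraries, is not given here. These calls are therefore not read as particular to the proteasome genes. Of the 8 leukocyte markers tested 0 were called by edgeR in this comparison and 1 had an unadjusted p under 0.05, while their sums lay at 619 to 789 CPM with NAM/PN and 523 to 608 CPM with vehicle. The sums of 4 other lists were separate as well. With NAM/PN the MHC class I genes summed to 2408 to 3442 CPM against 1980 to 2378 CPM with vehicle, the stromal markers to 4089 to 7439 against 2697 to 3209 CPM, the markers of regenerating fibers to 3787 to 4733 against 3149 to 3650 CPM, and the myofiber markers to 24138 to 47997 against 59695 to 68664 CPM. The sums of the interferon genes overlapped, at 224 to 318 CPM with NAM/PN and 192 to 245 CPM with vehicle. The share of all genes whose libraries did not overlap in this comparison is not given here. The part of the genes of these lists in the result was not tested. The log2 ratios of Psmb8 to Psmb5 and of Psmb9 to Psmb6 differed by 0.29 and 1.31 (exact permutation p = 0.4 and 0.229, where 0.0571 is the smallest this design allows).

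In aged contralateral muscle the differences of Psmb8, Psmb9 and Psmb10 were -0.57 ± 0.31, -0.48 ± 0.59 and -0.29 ± 0.18. This comparison shares its vehicle libraries, replicate 6 included, with that of age in contralateral muscle, and without that replicate Psmb8 stood at -0.11. In young mice the 3 genes ranged from -0.45 to -0.02 in injured and from -0.18 to 0.32 in contralateral muscle, and the 31 constitutive genes had medians of -0.02 and 0.07.

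**Figure D5:**
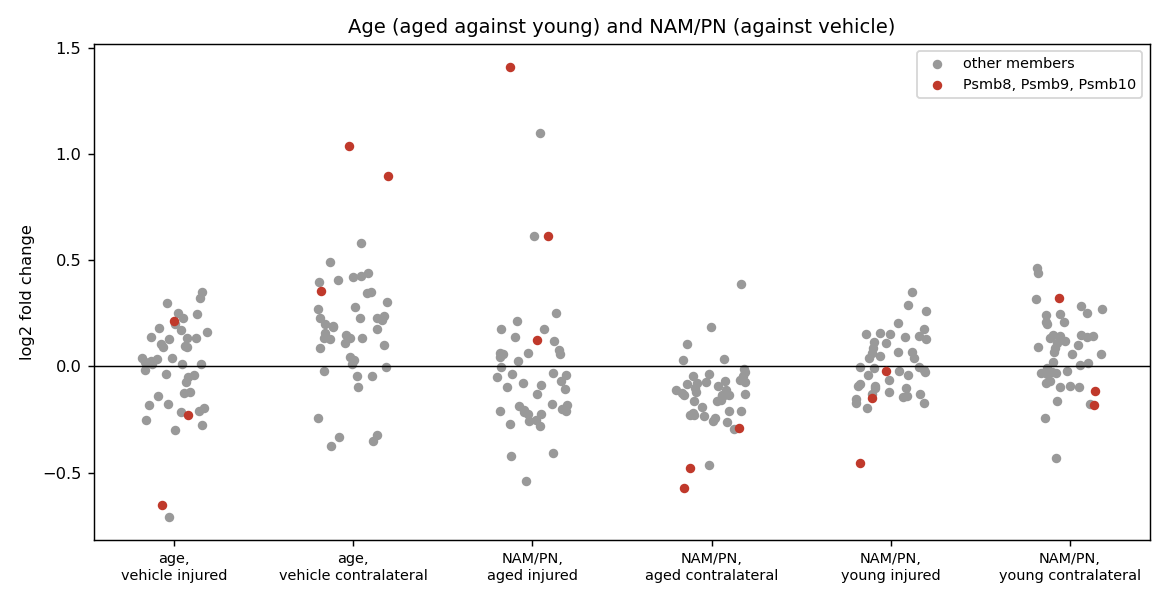
Log2 fold changes for age (aged against young vehicle mice) and NAM/PN (against vehicle) of the proteasome genes tested, Psmc3ip left out, with the immunoproteasome genes in red. No point passed an edgeR adjusted p of 0.05, and the largest values belong to Psmb9 in aged contralateral muscle for age (1.04) and in aged injured muscle for NAM/PN (1.41). Points are shifted sideways at random for legibility.

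Whether one effect depended on another was tested by 4 interactions, and edgeR called 0 members in each, against 0% of all genes in 3 of them and 0.0952% for NAM/PN by leg in young mice. For NAM/PN by leg in aged mice 3 members had an unadjusted p under 0.05, Psmb8 (1.19 ± 0.49), Psmb9 (1.89 ± 0.86) and Psme4 (-0.64 ± 0.33), meaning a larger injury difference with NAM/PN, with adjusted p values of 0.558, 0.611 and 0.65. The share of all genes at an unadjusted p under 0.05 was 7.64% there, and 4.31%, 8.77% and 9.7% in the interactions that follow. For NAM/PN by leg in young mice there was 1, Psmc3ip. For NAM/PN by age in injured muscle there were 4, among them Psmb9 (1.86 ± 0.86). Voom with quality weights called 3 of the 47 for this interaction, Psmb8 (1.01, adjusted p = 0.0465) and Psmb9 (2.37, adjusted p = 0.0165) as higher and Psme3 (-0.56, adjusted p = 0.0413) as lower, where DESeq2 called 0. The share of all genes that voom called there is not given here. For age by leg in vehicle mice there were 2, Psmb8 (-1.13 ± 0.48) and Psmd4 (-0.83), with adjusted p values of 0.446 and 0.406, and without aged vehicle contralateral replicate 6 the value of Psmb8 was -0.70. The smaller injury difference of Psmb8 in aged than in young vehicle mice therefore did not pass the test of the difference.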

How the data were processed

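Gastrocnemius RNA of 38 libraries was sequenced from the 3′ end (QuantSeq). The authors used STAR on GRCm38 and htseq-count (HTSeq), and deposited raw counts of 27554 genes, whereas annotation release and strand setting are not given in the sources used here. GENCODE M21 gave symbols and positions and held 27441 of the identifiers, and promoters from RefSeq (GRCm38.p6). Groups follow the age, treatment and leg in the labels, whose descriptions use a different compound code at each age although both are labelled as 1 treatment.

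Counts were tested with edgeR 4.0.16 (R 4.3.3): filterByExpr kept 12610 genes, libraries were scaled by TMM, and 1 quasi-likelihood model held a coefficient for each of the 8 groups. Benjamini-Hochberg adjustment covered every tested gene (threshold 0.05). There were 10 comparisons of groups and 4 interactions. Log2 ratios of CPM (0.5 added) were compared by two-sided exact permutation tests, adjusted over 30 tests (scipy 1.17.1). The code was tested on simulated data.

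Alternatives were RLE size factors, no filter, voom with quality weights (limma 3.58.1), DESeq2 1.42.0, the groups compared alone, the style of description as a covariate, the mouse as a block, 0 or 2 CPM added, and each replicate left out. Total-count scaling and leaving out the 5 libraries of low component score were chosen after seeing the data.

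Psmb5 to Psmb10 were named throughout, with up to 3 further members per direction and comparison of smallest p among those called. Other members named were chosen after their values were seen. The members and all lists were chosen with earlier results of these data known. Mouse numbers in the labels pair the legs of 15 mice. Their deviations from group means correlated from -0.31 to 0.29, above 0.1 in 6 mice (consensus 0.0664), so the block was an alternative. Replicates of a group are separate mice, and within groups no pair of libraries agreed within sampling noise (lowest chi-square per degree of freedom 6.38 over 77 pairs). Counting error alone would not cover the spread between mice, which the model estimates.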

Additional observations from a re-analysis of the deposited data

Results flagged for a closer look

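Of 60 sets of values of a group tested, 4 held a library far from the rest by Dixon's test at the 95% level, where chance alone gives about 3. Psmb7 stood at 17.9 CPM in aged NAM/PN contralateral 4, against 109.9 to 147 CPM in its 5 fellow libraries, and at 29.6 CPM in aged NAM/PN injured 4, against 85.1 to 90.2 CPM in the other 3. Both libraries are among the 5 of low component score. The log2 ratio of Psmb10 to Psmb7 in aged NAM/PN contralateral 4 was 0.36, against -3.28 to -2.67 in the others. Psmb8 stood at 22.6 CPM in aged vehicle contralateral 6, against 3.87 to 10.3 CPM in the other 5.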

How the results depend on the processing

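The number of members called after injury in the 4 groups of mice was 11, 11, 13 and 21. It moved by over 1.5 times with voom with quality weights (22 in young vehicle and 20 in young NAM/PN), with the mouse as a replicate block in voom (23, 20 and, in aged NAM/PN, 33), with the mouse as a fixed replicate block (6 in aged vehicle), with the groups compared alone (6 in aged vehicle and 13 in aged NAM/PN), with total-count scaling (36, 27 and, in aged NAM/PN, 33) and without the 5 libraries of low component score (24 in young vehicle). It stayed within 1.5 times with RLE size factors, no filter, the style of description as a covariate and DESeq2. For NAM/PN in aged injured muscle voom called 4, also with the block, and for NAM/PN by age 3, also with the block, and without the 5 libraries 1 was called there and 1, Psmb8, for age in contralateral muscle; the block ended no call on the 0 of the other comparisons. Leaving out each replicate gave 11 to 16, 7 to 13, 6 to 14 and 14 to 23 members called after injury, and 0 in the other 10 comparisons. Apart from total-count scaling, the share of all genes called in these alternative fits is not given here.

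With total-count scaling, Psmb6 turned to 0.69, 0.55, 0.45 and 0.59 and Psmb7 to 0.0859, 0.0313, 0.0989 and 0.46 after injury in the 4 groups, Psmb5 to 0.59 in aged vehicle, Psma3 to 0.0418 in young vehicle and 0.0631 in aged NAM/PN, Psmd12 to 0.29 in young vehicle, Psmd7 to 0.12 and 0.0292 in young NAM/PN and aged vehicle, and Psme3 to 0.29 in aged NAM/PN mice. Psmb5 in aged vehicle mice became 0.0543 with voom, 0.0558 with the voom block and 0.054 with the fixed block, and in young vehicle mice -0.0303 without the 5 libraries. Psmb9 for NAM/PN in aged contralateral muscle became 0.17 with voom and 0.19 with the block, and Psmb10 for NAM/PN by age -0.0117 with the block. The ratio of Psmb10 to Psmb7 for NAM/PN turned to -0.0399 in aged and 0.17 in young injured muscle without the 5 libraries. No ratio with 0 CPM added could be given for Psmb9, which was at 0 in some libraries. Leaving out each replicate turned the sign of further values near 0, with ranges of -0.0519 to 0.14 and -0.28 to 0.0223 for Psmb5 after injury in young and aged vehicle mice, -1.21 to 0.22 for Psmb9 and NAM/PN in aged contralateral muscle, -0.0127 to 0.25 and -0.28 to 0.017 for Psmb10 in NAM/PN by age and age by leg, -0.16 to 0.0952 for Psmb8/Psmb5 and age in injured muscle, -0.72 to 0.0193 and -0.26 to 0.40 for Psmb9/Psmb6 and NAM/PN in aged and young contralateral muscle, and, for Psmb10/Psmb7 and NAM/PN, -0.0399 to 0.53 in aged injured, -0.79 to 0.13 in aged contralateral, -0.37 to 0.23 in young injured and -0.40 to 0.0506 in young contralateral muscle. The causes were not tested. Psmb9 lay at 0 to 1.4 CPM in young vehicle and Psmg1 at no more than 4.74 CPM in aged NAM/PN contralateral muscle, and whether depth accounts for their changes between settings was not tested.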
